A study of Mus musculus with 2 samples.

Results

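Genes for 10 receptors of peptides and neurotransmitters were followed in newborn mouse ureters cultured with an inhibitor of SHH signaling: Avpr1a, Mc5r, Agtr1a, Agtr2, Ednra, Ednrb, Chrm2, Chrm3, Adra1a and Ptgfr. They were taken from 30011 named genes of the array, with every probe that the array files name after them, 12 probes in all. They were selected on the measured log2 ratios of cyclopamine over control on these same arrays, which were known when the genes were chosen, so those ratios are a description and no test was made on them. Wild-type NMRI ureters were explanted on the day of birth (P0). Culture lasted 18 h in medium with cyclopamine at 10 µM, a plant alkaloid that acts on the signal transducer SMO, or with the solvent DMF at 1:1000 (control). DMF is the solvent in the labels, whereas the methods of the study name ethanol as the solvent of cyclopamine. Ureters were pooled for RNA, and 2 Agilent arrays with a pair of dyes were hybridised, each with a cyclopamine pool against a control pool: replicate 1 held female pools with cyclopamine in the red dye, and replicate 2 held male pools with the dyes swapped. Sex, dye and replicate therefore cannot be told apart. The labels name a different inhibitor, IWP-2, as the source of the treated channel, while titles, treatment entries and protocol name cyclopamine, and the arrays were read as cyclopamine.

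All 10 genes code for receptors that couple to G proteins. Receptors such as those for vasopressin, angiotensin II, endothelin, acetylcholine, noradrenaline and prostaglandin F2α act on smooth muscle largely through Gq, phospholipase C and calcium, and can thereby raise its tone, whereas melanocortin receptors act through Gs and cyclic AMP. In the ureter, smooth muscle carries urine towards the bladder by peristaltic contraction, and hormones and nerves modulate the rhythm of that contraction.

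The SHH targets Ptch1, Gli1 and Hhip, read first as a check of the treatment, were lower on both arrays, with mean log2 ratios of cyclopamine over control of -1.31, -1.96 and -1.15 (limma adjusted p 0.000248, 1.76e-08 and 0.00683). Hhip was uneven, with log2 ratios of -0.31 on replicate 1 and -1.99 on replicate 2. The defining markers of the ureter were present, with all 8 urothelial and all 9 smooth muscle genes above background, and so were all 7 endothelial and all 7 neuronal and glial markers. Of 5 kidney markers, only Lrp2 was tested. Between 64.6% and 69.9% of spots were above background in each channel. Intensities were not scaled between arrays, and control spots at the 75th percentile read 3322 on replicate 1 but 621 on replicate 2. The arrays limit every value below to n = 2. Because whole ureters were extracted, fewer cells of a type and less RNA per cell cannot be told apart.

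Of the 10 receptor genes, 8 were measured in all 4 channels, while Chrm2 and Adra1a were not well above background in any channel. Avpr1a, Mc5r and Agtr1a were lower with cyclopamine on both arrays, and Agtr2 was higher on both. Ednra, Ednrb, Chrm3 and Ptgfr had ratios of opposite sign on the 2 arrays. Over all 19397 genes tested, 28.9% were lower on both arrays, 28.6% higher on both and 42.4% of opposite sign. Of the receptor genes, only Avpr1a and Mc5r passed a fold limit modelled on that of the study. The limit here asks for control intensities over 100 and for a shift of 1.5-fold or more that runs the same way on both arrays. The methods of the study give an intensity and a fold threshold but not how the arrays were combined. Of 13661 genes with control intensities over 100 on both arrays, 0.63% were lower and 0.212% higher past this limit. Among the receptor genes, 7 had control intensities over 100 on both arrays. Since the genes were chosen for these ratios, nothing is read from the count of 2.

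**Figure D1:**
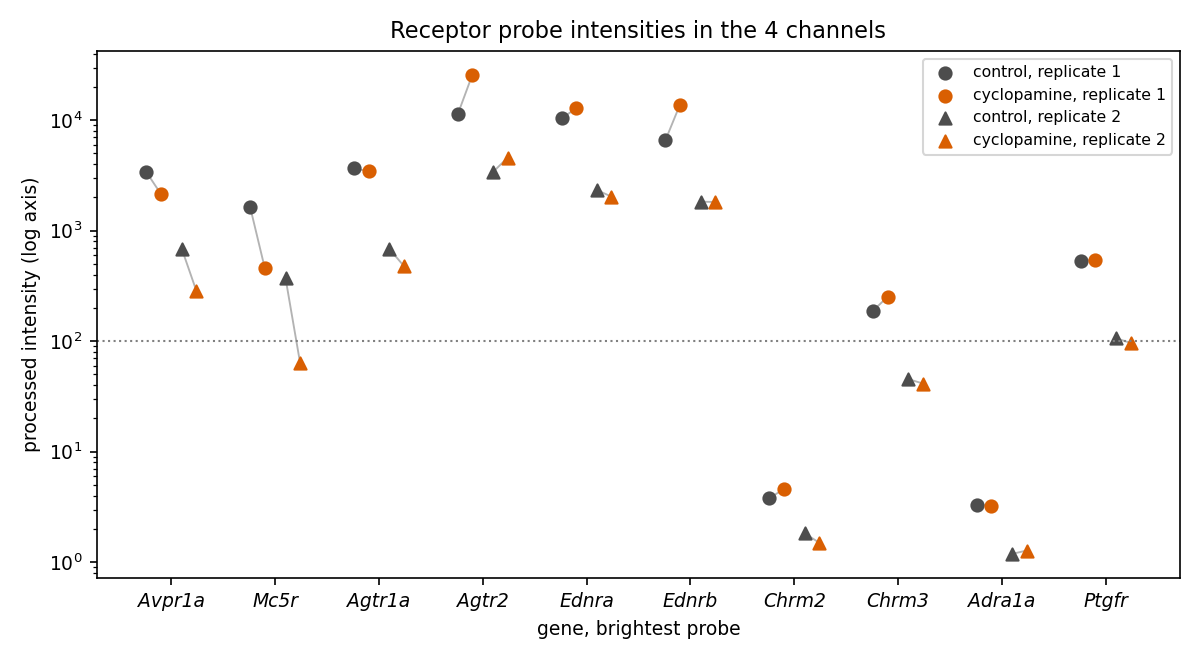
Processed intensity of the brightest probe of each receptor gene (log axis) in control (grey) and cyclopamine (orange) channels of replicate 1 (circles) and replicate 2 (triangles), with a dotted line at an intensity of 100. Avpr1a and Mc5r sit lower with cyclopamine on both arrays, Agtr2 sits higher on both, and Chrm2 and Adra1a lie at background; levels of different probes are not comparable.

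Mc5r codes for melanocortin receptor 5, which is best known from exocrine glands and adipocytes and is activated by peptides cut from POMC. Its brightest probe (chr18:68501954-68502013, build mm9, plus strand) read 1625 in the control against 461 with cyclopamine on replicate 1, and 373 against 64.1 on replicate 2 (processed intensity). Cyclopamine was thus below the control in both pairs, by 3.53-fold and 5.82-fold. The mean log2 ratio was -2.18 ± 0.51 (SD, n = 2), the lowest of the 8 measured genes. The array files assign this probe to XR_385979, a RefSeq model of a non-coding transcript, rather than to the messenger RNA. The second probe (chr18:68499130-68499189, mm9), assigned to the messenger RNA NM_013596, had intensities of 173 and 93.8 on replicate 1 and of 45.3 and 16.3 on replicate 2. It was lower with cyclopamine on both arrays as well, by 1.84-fold and 2.78-fold, and the log2 ratios averaged -1.18 ± 0.42 (SD, n = 2). The probes therefore gave the same direction but different sizes, and the control of the second probe was under 100 on replicate 2.

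Among 13660 other genes with control intensities over 100 on both arrays, those whose pair of log2 ratios lay nearest to that of Mc5r were Sct, Gli1, Foxl1, Itih3 and Sp5. Their Euclidean distances from Mc5r ran from 0.38 to 1.18 log2 units over the 2 arrays. Sct, which codes for the peptide hormone secretin, had log2 ratios of -1.60 and -2.23 against -1.82 and -2.54 for the brightest Mc5r probe. The distances rest on that probe. The second Mc5r probe, assigned to the messenger RNA, had log2 ratios of -0.88 and -1.48, and the genes nearest to it were not sought.

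Markers of adipocytes, which can express Mc5r, also read lower with cyclopamine. This held for all 4 of them (Fabp4, Adipoq, Plin1, Cidec) on both arrays. Their summed intensity went from 47883 to 39468 on replicate 1 and from 8422 to 7051 on replicate 2. Most of that sum was Fabp4, with control intensities of 44930 on replicate 1 and 8274 on replicate 2. Cidec was called by limma at a mean log2 ratio of -1.25 (adjusted p 0.00215), with ratios of -0.46 and -2.04. Its cyclopamine channel on replicate 2 was not above background. Cidec thus entered the test only through its control channels, and nothing is read from that p value. Adipoq had -0.75 (limma adjusted p 0.0974), Plin1 -0.83 (limma adjusted p 0.0545) and Fabp4 -0.25 (limma adjusted p 0.767). Their part in the Mc5r ratio was not tested.

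Avpr1a codes for the V1a vasopressin receptor, a Gq-coupled receptor of vascular and other smooth muscle. Its single probe (chr10:121890135-121890194, mm9, plus strand) read 3390 in the control against 2146 with cyclopamine on replicate 1, and 689 against 288 on replicate 2. The cyclopamine channel was the lower one on both arrays, by 1.58-fold and 2.39-fold, and the mean log2 ratio was -0.96 ± 0.42 (SD, n = 2). On replicate 1 Avpr1a lay just inside the fold limit. Of the 10 genes, the next one outside it in the same direction was Agtr1a, which was lower by 1.06-fold and 1.43-fold. Ratios of replicate 1 rose with the length of the gene (Spearman's rho 0.44 across 22468 probes, against 0.035 on replicate 2), and Avpr1a is a short gene of 4955 bp. With that trend removed, Avpr1a was lower by 1.32-fold on replicate 1, short of the limit.

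The genes nearest to Avpr1a in their pair of log2 ratios were Foxf1, Car3, Aff3, Ntng1 and Penk, at distances from 0.026 to 0.12. Foxf1, a forkhead transcription factor gene of visceral mesenchyme and a target of SHH, had log2 ratios of -0.68 and -1.27 against -0.66 and -1.26 for Avpr1a. Penk, the gene of the enkephalin precursor, had -0.77 and -1.20.

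Agtr2 codes for the type 2 angiotensin II receptor, which is abundant in fetal mesenchyme, and whose loss in mice goes along with malformations of kidney and urinary tract. It was the only measured gene of the 10 that was higher with cyclopamine on both arrays. Its probe (chrX:21065564-21065623, mm9, plus strand) read 11375 in the control against 25823 with cyclopamine on replicate 1, and 3409 against 4589 on replicate 2. Cyclopamine was thus 2.27-fold higher on replicate 1 and 1.35-fold higher on replicate 2, under the limit of 1.5-fold on the latter, and the mean log2 ratio was 0.81 ± 0.53 (SD, n = 2). Agtr1a, the gene of the type 1a receptor that mediates contraction by angiotensin II, had intensities of 3671 and 3451 on replicate 1 and of 685 and 479 on replicate 2. It was lower on both arrays, but on replicate 1 by a log2 ratio of -0.09, and its mean of -0.30 ± 0.30 (SD, n = 2) was about as large as its spread.

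RefSeq promoters (GRCm38.p6) were read for 7 of the 10 genes. The promoters of Mc5r, Agtr1a and Adra1a were not searched, so nothing can be said about motifs in them. Those of Avpr1a and Agtr2 are shown because these were the members with a promoter at hand and a ratio of one sign on both arrays, in opposite directions. Each is 250 bases long, ends at the base before the annotated start, and is written 5′ to 3′ on the strand of the gene, at chr10:122448249-122448498 and chrX:21484374-21484623, both on the plus strand. Capitals mark the match to a searched motif.
Avpr1a promoter: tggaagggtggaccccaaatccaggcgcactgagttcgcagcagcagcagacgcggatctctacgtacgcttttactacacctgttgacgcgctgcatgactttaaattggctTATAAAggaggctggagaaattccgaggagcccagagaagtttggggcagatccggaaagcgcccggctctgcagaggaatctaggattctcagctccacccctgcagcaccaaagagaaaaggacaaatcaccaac
Agtr2 promoter: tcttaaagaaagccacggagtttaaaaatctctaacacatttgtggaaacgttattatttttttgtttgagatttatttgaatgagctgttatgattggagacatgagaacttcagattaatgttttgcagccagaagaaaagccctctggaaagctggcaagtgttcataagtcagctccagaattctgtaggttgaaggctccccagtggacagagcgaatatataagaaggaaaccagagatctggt

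Both strands of these windows were searched for the GLI motif GACCACCCA, the forkhead motif TGTTTAC, the TATA motif TATAAA and the GC box GGGCGG, which share no overlap with each other in the promoters shown. Of 32851 mouse promoters of the same length, 0.225% held the GLI motif, 3.17% the forkhead motif, 12.4% the TATA motif and 32.7% the GC box. The Avpr1a promoter held the TATA motif, starting 137 bases before the annotated start, and that of Agtr2 held none of the 4 motifs in these exact letters. Variants were not searched, so the letters tatataag near the end of the Agtr2 window were not counted. Of the other promoters, those of Chrm2 and Ptgfr held a GC box each, and those of Ednra, Ednrb and Chrm3 none of these letters. The GLI letters were in none of the 7 windows.

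Ednra and Ednrb code for the endothelin receptors, of which the A type drives contraction of smooth muscle and the B type is also needed for enteric neural crest cells and melanocytes. Ednra (chr8:80186985-80187044, mm9, minus strand) had intensities of 10414 in the control and 12810 with cyclopamine on replicate 1, and of 2333 and 2035 on replicate 2. It was higher on replicate 1 and lower on replicate 2, and its mean log2 ratio of 0.05 ± 0.35 (SD, n = 2) lay well within its spread. The main probe of Ednrb (chr14:104214484-104214543, mm9, minus strand) had intensities of 6603 and 13859 on replicate 1 and of 1832 and 1821 on replicate 2. Ednrb was therefore 2.10-fold higher with cyclopamine in the female pools and level in the male pools, with log2 ratios of 1.07 and -0.01.

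A second Ednrb probe, annotated to the transcript NM_001276296, is shown because it reads the gene at another place (chr14:104220870-104220929, mm9, minus strand) and gave the same split between arrays at a smaller size.
Ednrb second probe: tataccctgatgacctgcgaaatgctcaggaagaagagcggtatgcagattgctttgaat

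This probe had intensities of 2186 in the control and 3371 with cyclopamine on replicate 1, and of 547 and 504 on replicate 2. Its log2 ratios of 0.62 and -0.12 had the same signs as those of the main probe. The means of 0.53 ± 0.76 and 0.25 ± 0.52 (SD, n = 2) were both smaller than their spread.

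**Figure D2:**
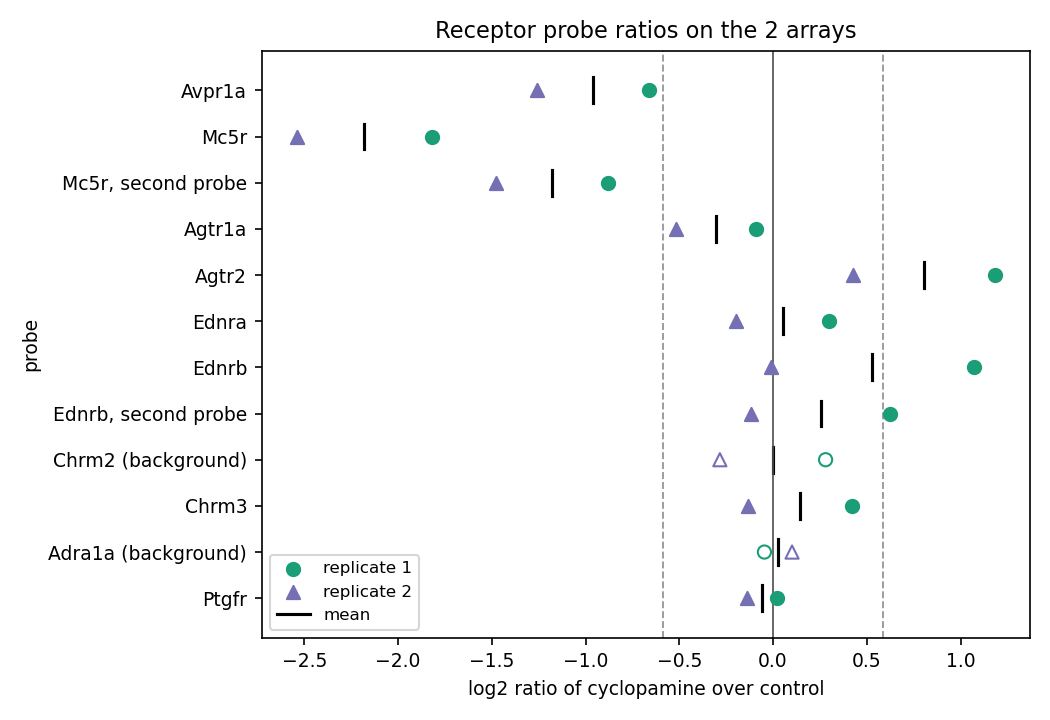
Log2 ratio of cyclopamine over control of each of the 12 receptor probes on replicate 1 (circles) and replicate 2 (triangles), with the mean as a bar, open symbols for probes at background and dashed lines at 1.5-fold. Both Mc5r probes and Avpr1a lie beyond the left line on both arrays, and both Ednrb probes lie beyond the right line on replicate 1 only.

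Among the receptors of autonomic transmitters, Chrm3, the muscarinic receptor that drives contraction of bladder smooth muscle, had a control intensity over 100 on replicate 1 only. Its probe (chr13:9875880-9875939, mm9, minus strand) had intensities of 189 in the control and 253 with cyclopamine on replicate 1, and of 45.4 and 41.4 on replicate 2. The log2 ratios of 0.42 and -0.13 differed in sign, with a mean of 0.15 ± 0.39 (SD, n = 2). Chrm2, the Gi-coupled muscarinic receptor, had intensities of at most 4.60 in the 4 channels, and Adra1a, an α1-adrenergic receptor, of at most 3.32. Neither was well above background on any array, so no fold is given for them.

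Ptgfr, the receptor of prostaglandin F2α, had the smallest difference between the arrays. Its probe (chr3:151464323-151464382, mm9, minus strand) had intensities of 535 in the control and 542 with cyclopamine on replicate 1, and of 106 and 96.6 on replicate 2. The log2 ratios were 0.02 and -0.14, and the mean of -0.06 ± 0.11 (SD, n = 2) was smaller than its spread.

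In each of the 8 measured genes the log2 ratio was higher on replicate 1 than on replicate 2, by 0.16 (Ptgfr) to 1.08 (Ednrb). Over all 19397 genes tested, this was so for 49.7%. The medians of the 8 genes were 0.16 on replicate 1 and -0.17 on replicate 2, against -0.0025 and -0.00020 for all genes tested. The genes were chosen with these ratios known, so nothing is read from either contrast with all genes. Medians that were likewise above 0 on replicate 1 and below 0 on replicate 2 were seen in other lists of this report. These were 0.10 and -0.09 for other receptors and 0.20 and -0.11 for signalling genes, whereas ligand and enzyme genes had -0.15 and -0.09. Markers of endothelium (0.54 and -0.10), lamina propria and fibroblasts (0.42 and -0.45) and leukocytes (0.21 and -0.07) had the same split. Those of smooth muscle (-0.0046 and -0.36), urothelium (0.15 and 0.17), neurons and glia (-0.07 and -0.06) and adipocytes (-0.47 and -0.91) did not. The split was thus not particular to receptor genes. With the gene length trend removed, the order held in 8 of 8 genes, but Ptgfr then had log2 ratios of -0.10 and -0.17, so that 3 genes and not 4 had opposite signs. Whether sex, dye or pool went along with it cannot be told apart.

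**Figure D3:**
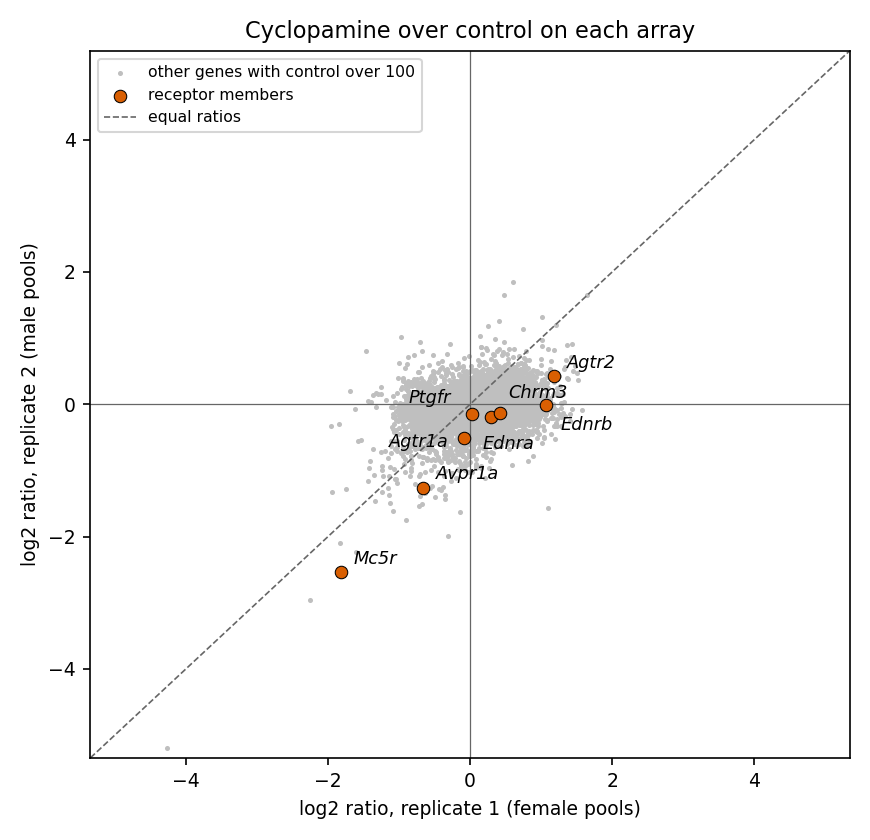
Log2 ratio of cyclopamine over control on replicate 1 (female pools, x axis) and replicate 2 (male pools, y axis) for 13661 genes with control intensities over 100 on both arrays (grey) and the 8 measured receptor genes (orange, Chrm3 included although its control was 45.4 on replicate 2). All 8 lie below the dashed line of equal ratios, and Mc5r lies far from the cloud in the lower left.

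To see how other receptors of the same kind behaved, a list of 85 further peptide, amine, prostanoid and nucleotide receptor genes was read, of which 52 were tested. Limma called 3 of them lower and 1 higher, where over all genes 0.866% were called lower and 0.438% higher. The calls in this list and the next lists ended when the rounded values of the series table, or the 4 channels as unpaired samples, were fitted in place of the array ratios. The median log2 ratio of the list was 0.04, against -0.01 for all genes tested. Ptger3, a prostaglandin E2 receptor coupled to Gi, was 2.32-fold lower, with intensities of 1103 and 496 on replicate 1 and of 169 and 70.1 on replicate 2 (-1.21 ± 0.08 on the log2 scale (SD, n = 2), with an adjusted p of 0.000721 by limma). Bdkrb1, the inducible bradykinin receptor, was lower too, with -0.98 ± 0.55 on the log2 scale (SD, n = 2; adjusted p 0.0139 by limma).

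Agtr1b, a close copy of Agtr1a, was called lower at a mean log2 ratio of -0.89 (limma adjusted p 0.0497), a mean of -0.22 (replicate 1) and -1.56 (replicate 2). Its intensities lay between 4.70 and 49.0, and the cyclopamine channel of replicate 2 was not above background. Agtr1b thus entered the test only through its control channels, so nothing is read from its p value. Hybridisation of Agtr1a RNA to its probe was not tested. Cckar, a cholecystokinin receptor and the 1 higher call of the list, was not above background in the control of either array. It was at least 1.54-fold higher with cyclopamine (limma adjusted p 7.93e-05). Its intensities were 8.32 in the control and 12.6 with cyclopamine on replicate 1, and 1.14 and 7.37 on replicate 2. Because it entered the test only through its cyclopamine channels, nothing is read from that p value. Ptger1 and P2ry14 passed the fold limit as lower together with Ptger3, with mean log2 ratios of -0.65 (limma adjusted p 0.196) and -0.82 (0.0529), and were not called.

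The closest relatives of the 10 genes were in part not detected. Of the vasopressin and oxytocin receptors, Avpr1b and Avpr2 were not above background in any channel, while Oxtr was, with a log2 ratio of 0.82 (limma adjusted p 0.0529). Of the melanocortin receptors, Mc1r was not above background, and Mc2r, Mc3r and Mc4r had log2 ratios of -0.10, 0.56 and 0.29 (limma adjusted p 0.926, 0.345 and 0.727), against -2.18 for Mc5r. Chrm1, Chrm5 and Adra1d were not above background in any channel, and Chrm4 was above background in 2 of 4. Adra1b was measured throughout, with intensities of 2838 and 3003 on replicate 1 and of 1150 and 1100 on replicate 2, and its log2 ratio was 0.01 (limma adjusted p 0.994). Of the α1-adrenergic receptors, Adra1b was thus the one with signal in these explants.

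Of a list of 45 ligand genes and genes of ligand-making or ligand-degrading enzymes, 38 were tested, and limma called 5 lower and 0 higher (14 had an unadjusted p under 0.05 in either direction). Over all 19397 genes tested, limma called 0.866% lower and 0.438% higher, and 933 lower and 822 higher genes had an unadjusted p under 0.05. The median log2 ratio of the list was -0.20. The 5 lower genes all code for peptide precursors: Sct at -1.92 ± 0.44 (adjusted p 4.99e-08), Nppb at -1.43 ± 1.35 (adjusted p 0.000504), Cck at -1.13 ± 0.39 (adjusted p 0.00233), Penk at -0.99 ± 0.31 (adjusted p 0.0107) and Npy at -0.83 ± 0.01 (adjusted p 0.0468), each as mean log2 ratio ± SD (n = 2) with the limma value. Sct had intensities of 802 in the control and 264 with cyclopamine on replicate 1, and of 144 and 30.6 on replicate 2. Penk read 74484 and 43650 on replicate 1 and 15382 and 6673 on replicate 2. Nppb read 106 and 20.1 on replicate 1 but only 8.07 and 5.78 on replicate 2, with unequal log2 ratios of -2.39 and -0.48. Hpgd, which inactivates prostaglandins, passed the fold limit as lower at -0.70 without a call (limma adjusted p 0.143).

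Among the ligands of the 10 receptors and the enzymes that make them, limma called none (Pomc, Edn1, Ece2 and Ptgs2 had an unadjusted p under 0.05). Avp, the vasopressin gene, and Edn3 were not above background in any channel, and Oxt and Edn2 were above background in 1 of 4 channels each. Pomc, the precursor of melanocortins, had a log2 ratio of -0.53 (limma adjusted p 0.392), Agt, the angiotensin precursor, one of -0.21 (0.806), and Edn1 one of -0.75 (0.124). Edn1 read 485 in the control against 203 with cyclopamine on replicate 1, and 71.5 against 60.4 on replicate 2. Ece2, an endothelin-converting enzyme chosen for mention once its values were seen, had a log2 ratio of -0.69 (limma adjusted p 0.158). For the transmitter enzymes the log2 ratio was -0.24 for Chat and -0.38 for Th (limma adjusted p 0.786 and 0.643). The cyclooxygenase genes had 0.84 for Ptgs2 (limma adjusted p 0.0545) and -0.10 for Ptgs1 (0.927). Ptgs2 was called higher by limma when the prior followed intensity, with the gene length trend removed, with the mean of all probes and with outlier spots kept.

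**Figure D4:**
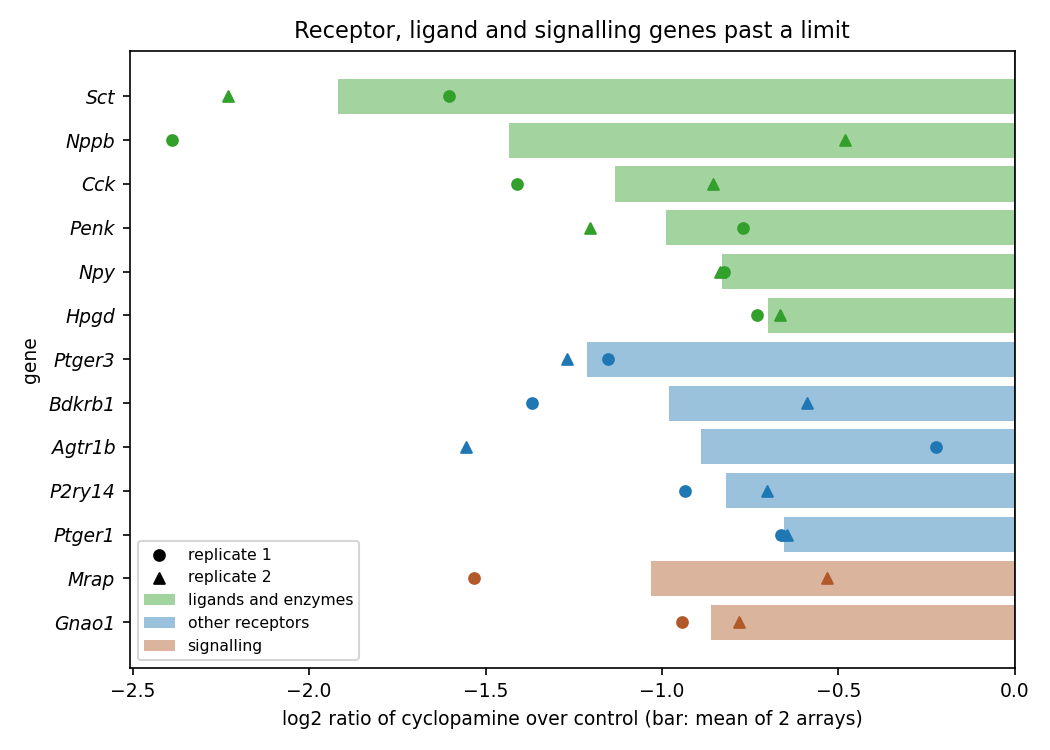
Mean log2 ratio of cyclopamine over control (bars) with the values of replicate 1 (circles) and replicate 2 (triangles) for 13 genes of the ligand and enzyme (6), other receptor (5) and signalling (2) lists that were called by limma or passed the fold limit and were above background in the control on both arrays. All 13 were lower on both arrays, with Sct the lowest at -1.92. Agtr1b was not above background with cyclopamine on replicate 2. Cckar is left out because it has only a bound.

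Downstream of the receptors, 53 of 55 genes for G proteins, phospholipases, calcium channels, kinases, regulators and accessory proteins were tested (Grk3 by 2 symbols). Limma called 3 lower and 0 higher (6 had an unadjusted p under 0.05 in either direction). Over all 19397 genes tested the shares called were 0.866% and 0.438%, with 933 lower and 822 higher genes at an unadjusted p under 0.05. The median log2 ratio of the list was 0.02. Mrap, which codes for an accessory protein of melanocortin receptors, had intensities of 3173 and 1098 on replicate 1 and of 279 and 193 on replicate 2 (-1.03 ± 0.71 on the log2 scale (SD, n = 2), with an adjusted p of 0.00973 by limma). Mrap is also an adipocyte gene, and the adipocyte markers given above were lower in the same channels, whose part in it was not tested. For Gnao1, which codes for the G protein subunit αo, the value was -0.86 ± 0.11 (SD, n = 2; adjusted p 0.0342 by limma). The Gq genes Gnaq and Gna11, which serve Avpr1a, Agtr1a and Ednra, had log2 ratios of -0.20 and -0.05 (limma adjusted p 0.824 and 0.961).

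Markers of smooth muscle, in which several of these receptors act, had unequal ratios. Of the 9, limma called 1, Actg2, lower (log2 ratio -0.90, adjusted p 0.0251), 5 were lower on both arrays, and Myh11 had a log2 ratio of -0.02 (adjusted p 0.987). Their summed intensity went from 356319 to 329554 on replicate 1 and from 93995 to 58333 on replicate 2. Of the 7 lamina propria and fibroblast markers limma called 0 (3 had an unadjusted p under 0.05), with a median log2 ratio of 0.12. Thy1 and Aldh1a2 passed the fold limit as lower, and Pdgfra had a log2 ratio of 0.64 (limma adjusted p 0.266). Among the 8 urothelial, 7 endothelial, 7 neuronal and glial and 5 leukocyte markers limma called 0, with 1, 0, 1 and 0 at an unadjusted p under 0.05. The part of any of these cell types in the ratios of the receptor genes was not tested.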

How the data were processed

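Per the file headers, the authors made the deposited spot intensity values with Agilent Feature Extraction 12.2.0.7 (the submitters' processing notes name 10.7.3.1): background-subtracted, detrended and dye-balanced (linear and LOWESS). The log10 ratio in the deposited files, red over green, only served to settle direction. The authors' deposited series table holds a score, a signed fold change rounded to 1 decimal, and was used as an alternative. Flags are the deposited software output.

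Outlier and control spots were left out, and the remaining spots of a probe (at most 4) averaged as log2 values. Names came from RefSeq accessions where they matched (28328 of 39429 probes), and the brightest probe stood for a gene. The annotation of the array (mm9) gives no exon or UTR. Limma 3.58.1 under R 4.3.3 (lmFit, eBayes, +1 and -1 for dye, no intercept, Benjamini-Hochberg over 25975 probes, limit 0.05) tested probes with at least 0.5 of spots well above background in control or in cyclopamine on both arrays. With 1 residual degree of freedom most of the variance estimate comes from the prior shared by all probes. A gene at background in one group has a lower bound from channels after Aquantile normalization, against the lowest signal above background. Only the limma step was tested on simulated data.

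The receptors, lists, tests and rules were chosen with earlier results of these data known. Named were all 10 receptor genes, their closest relatives and ligands, up to 10 genes per list past a limit, the 5 genes nearest to Mc5r and to Avpr1a, and Ptch1, Gli1 and Hhip; Gnaq, Gna11 and the cell type markers were named in addition. One gene of the signalling list is counted but not reported here. Alternatives were other background correction, probe, filter and scaling choices, and each array alone.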

Additional observations from a re-analysis of the deposited data

Results flagged for a closer look

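The log2 ratios of 4 receptor genes had opposite signs in female pools (replicate 1) and male pools (replicate 2), always higher in the female pools. Over all genes tested, 42.4% had opposite signs. The ratios of Ednrb on replicate 2 (-0.01) and Ptgfr on replicate 1 (0.02) lay within the SD of their spots (0.016 and 0.088). The difference, replicate 1 minus replicate 2, was 0.50 for Ednra, 1.08 for Ednrb, 0.55 for Chrm3 and 0.16 for Ptgfr. These differences were not tested, because each sex has 1 array, and sex, dye and pool cannot be told apart. With the gene length trend removed, the ratios of Ptgfr were -0.10 and -0.17, both below 0. The second Ednrb probe gave a difference of 0.74.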

How the results depend on the processing

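In the 5 settings that recompute the mean log2 ratio from both arrays, it ranged from -2.21 to -1.68 for Mc5r, from -0.96 to -0.82 for Avpr1a, from 0.79 to 0.96 for Agtr2 and from 0.39 to 0.54 for Ednrb. Its sign turned only for Ednra, to -0.05 with the gene length trend removed. The arrays alone gave opposite signs for Ednra (-0.20 and 0.30), Ednrb (-0.01 and 1.07), Chrm3 (-0.13 and 0.42) and Ptgfr (-0.14 and 0.02), replicate 2 first. Mc5r passed the fold limit in every setting and under every limit for which it was computed; Avpr1a missed it with series table values, with the gene length trend removed and at 2-fold, which left 1 receptor gene. Leaving out a replicate gave 2 to 4 receptor genes, with Agtr2 and Ednrb added by replicate 1 alone, and 229 to 1743 lower and 80 to 1362 higher genes. At 2-fold 20 genes were lower and 3 higher, with no control limit beyond background 192 and 84, and with series table values 19 were higher.

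Limma calls depended on the fit, and the cause was not tested. With normexp offset 50 and loess, 35 genes were lower and 11 higher, with 1 other receptor (Ptger3), 2 ligand genes (Sct, Cck) and 0 signalling genes (9 at an unadjusted p under 0.05). On the values of the series table it called 0 lower and 0 higher genes (unadjusted 660 and 695), and 0 in each list (unadjusted 6 receptors, 9 ligand and enzyme and 5 signalling genes). Treating the 4 channels as independent samples (no replicate block, so the pairing of channels on an array is ignored) limma called 0 and 0 (unadjusted 244 and 194), and 0 in each list (unadjusted 9, 8 and 3). Higher genes numbered 152 without a filter on dim probes and 163 with the length trend removed. Other receptors called numbered 7 with the length trend removed, with the mean of all probes and with outlier spots kept; Oxtr and P2ry14 were among them each time. Ptgs2 was called in these 3 settings and with the intensity trend. The array ratios of the main setting are themselves paired, so no further block was fitted. For Chrm2, Adra1a, Avp and the relatives at background, signal over background sets the limit, and no change could be read.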
